A study of Mus musculus with 19 samples.

Results

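The livers of control mice at 9 months were compared with those of control mice at 2 months, all genes being tested. The 9 libraries, 3 at 9 months and 6 at 2 months, were chosen by their labels alone and are 9 of the 19 in the series, which studies liver cancer driven by the c-Jun and Fra2 (Fosl2) parts of the transcription factor AP-1. Every library is bulk liver RNA of 1 male C57BL/6 mouse, labelled as mostly hepatocyte. The 9-month group holds control mice kept for 9 months after doxycycline was withdrawn at weaning, at 3 weeks of age. The 2-month group holds control mice kept for 2 months after the same withdrawal. Doxycycline removal switches the transgene on in mutant mice, and the controls were littermates that were given the same doxycycline schedule. The alleles the controls carry and the promoter that drives the transgene are not given in the labels. The 10 libraries outside the comparison are 3 mutant livers at 2 months, 3 tumour-free pieces of mutant livers at 9 months, and 4 tumours from the same 3 mutants.

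Time and sequencing run go together, since the 2-month and the 9-month samples were sequenced in separate runs, so age and run cannot be told apart in these data. RNA integrity numbers ranged from 7.2 to 9.1 with a median of 8.5 in the 9-month set, and from 7.5 to 8.2 with an average of 7.9 in the 2-month set. The total count was 19869241 to 20879281 per library at 9 months and 14294611 to 17448730 at 2 months. The p-values weigh the difference of the groups against the spread between animals within each group. They take the 9 animals as independent, which was not tested, since litters, cages and times of sacrifice are not given. In bulk RNA, fewer cells of a type and less RNA per cell cannot be told apart.

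The liver of an adult male mouse is shaped by pulses of growth hormone from the pituitary. The pulses act through the transcription factor STAT5 and keep a set of male-biased genes high and a set of female-biased genes low. Hepatocytes also store and burn fat: surplus fatty acids are joined to triglyceride and held in lipid droplets, and fasting or fatty acid ligands switch on oxidation genes through PPARα. With age and weight gain, male mice of this strain commonly gather fat in the liver.

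Of 13545 genes tested, 1616 passed at an adjusted p under 0.05 (11.9%), with 988 higher at 9 months (7.29%) and 628 lower (4.64%). Adjusted p-values are Benjamini-Hochberg values of edgeR's quasi-likelihood test over all genes tested, and levels are in CPM, counts relative to the TMM-scaled library size. A change of at least 2-fold was seen in 581 of the genes that passed (4.29%), 375 higher and 206 lower. The 9-month libraries lay wholly above or wholly below the 2-month libraries for 1450 of the genes that passed, and for 2367 of all genes tested (17.5%). The median log2 change over all genes tested was -0.0083. Leaving out 9-month control 2 left 797 calls, leaving out 9-month control 3 left 925, and leaving out 2-month control 4 left 414 of the 628 falls.

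**Figure D1:**
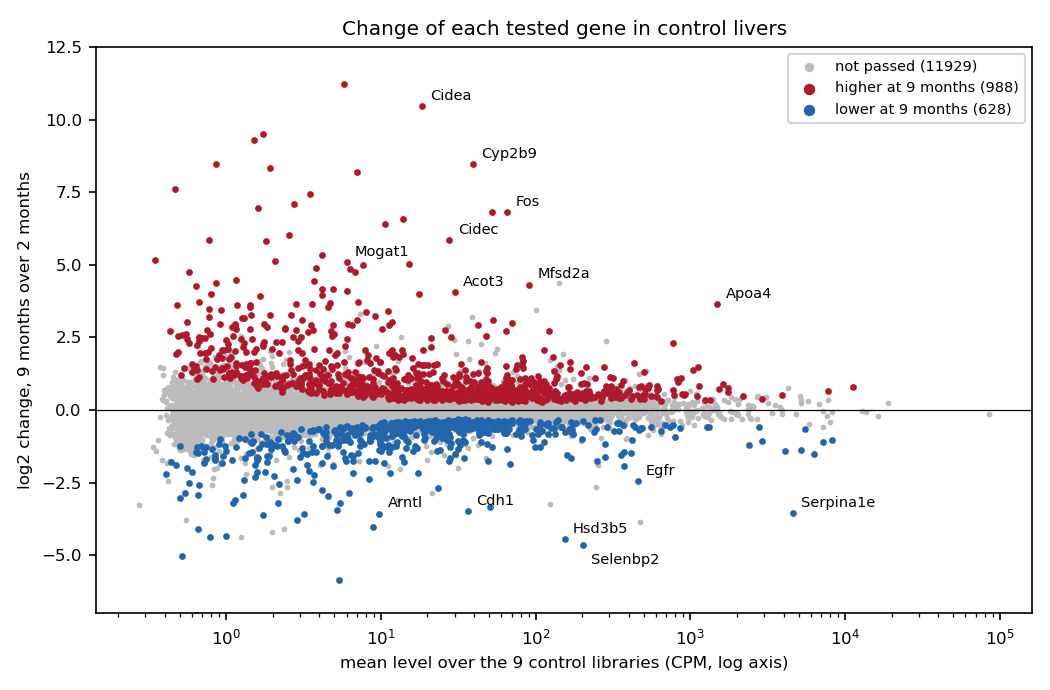
Log2 change of every tested gene at 9 months over 2 months in control livers, against its mean level over the 9 libraries (CPM, log axis). Red points passed and were higher at 9 months (988), blue points passed and were lower (628) and grey points did not pass (11929); named genes are described in the text.

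Libraries were compared within and between the groups. Pearson's correlation of log2 CPM across tested genes was 0.967 to 0.980 between 9-month libraries and 0.974 to 0.990 between 2-month libraries, and 0.943 to 0.966 between a 9-month and a 2-month library. The biological coefficient of variation was 23.8% at 9 months and 18.9% at 2 months. Changes went with gene length: among the 4422 shortest tested genes with a length 497 were higher and 160 lower (median log2 change 0.097), and among the 4421 longest 175 were higher and 272 lower (median -0.092). Processed pseudogenes took 0.0596% ± 0.0058 of the counts at 9 months (SD, n = 3) and 0.0443% ± 0.0012 at 2 months (SD, n = 6), the smallest p the exact permutation test allows (0.0119, adjusted over 24 gene sets 0.143). The part of run, RNA integrity and gene length in the results below was not tested.

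The label of the tissue held. Markers of hepatocytes took 10.2% to 10.3% of the counts at 9 months and 9.90% to 12.1% at 2 months (exact permutation p = 0.0595, adjusted 0.190). Markers of skeletal muscle had no count at 9 months and at most 6.2e-06% at 2 months, and those of adipocytes stayed at or under 4.4e-05% at 9 months and 5.7e-05% at 2 months. The genes of the transgene were examined in the controls as well. Fosl2 stood at 17.2, 10.9 and 8.07 CPM in the 9-month livers, against 7.33 to 16.7 CPM in the 2-month livers, a log2 change of 0.14 ± 0.27 (SE, adjusted p = 0.767). Myc, the oncogene named in the study's title, stood at 16.5, 5.47 and 3.55 CPM at 9 months and 2.89 to 10.8 CPM at 2 months (adjusted p = 0.693). Jun reached 335 CPM in 9-month control 1 but 35.2 and 19.7 CPM in the other two 9-month livers, against 9.23 to 22.7 CPM at 2 months, so the groups overlapped. Its call (log2 change 3.11 ± 0.80, adjusted p = 0.0431) was lost without 9-month control 1 and without any 1 of the 6 livers at 2 months, with an adjusted p of at most 0.106.

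A small set of genes was all or none between the groups and has to be read before the rest. H2-Ea-ps, the E alpha chain of MHC class II whose promoter is deleted in the C57BL/6 strain, had no count in any 2-month control, and 13.2, 21.6 and 17 CPM in the 9-month controls (1052 counts, at least 544-fold higher against a floor of 3 counts over the 2-month group). It lies at chr17:34341959-34344645 (GRCm38) in the MHC region. Gm10503, a long non-coding RNA on the same chromosome, likewise had no count at 2 months, and 4.80, 4.68 and 4.23 CPM at 9 months. On chromosome 13, Gm10260 stood at 18.4, 23.7 and 20.8 CPM at 9 months, against at most 0.172 CPM at 2 months. The lncRNA 4930481A15Rik on chromosome 19 went the other way, with 0.1, 0.049 and 0.243 CPM at 9 months and 6.59 to 9.99 CPM at 2 months.

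These genes followed the animal in the mutants. Of 187 genes that changed by at least 4-fold (log2 2) without overlap in the controls, 9 on 6 chromosomes had the 9-month state in all tissue of 9-month mutant 1, its tumour-free piece and both its tumours, and the 2-month state in 9-month mutants 2 and 3 and in all 2-month mutants. They are AK157302, Gm10260, Gm10503, H2-Ea-ps, Gm8810, 4930481A15Rik, Gm13443, Zfp979 and Gm6368, chosen after their values were seen. With all 19 libraries scaled together, H2-Ea-ps reached 38.9 CPM in the tumour-free piece of mutant 1 and 69.0 and 66.2 CPM in its tumours, and 0 to 0.0876 CPM in the tissue of mutants 2 and 3. Over the tumour-free pieces alone, 20 of the 187, these 9 among them, had the 9-month state in mutant 1 and the 2-month state in mutants 2 and 3. The 9-month state stood in all 3 pieces for 84 genes, the 2-month state in all 3 for 64, and other patterns were seen for the rest. The labels give 1 strain for every mouse, and no genotype at these genes was given or tested. The state of the 9 genes differed between the 2 control groups, and changes of other genes, on any chromosome, were not separated from it.

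**Figure D2:**
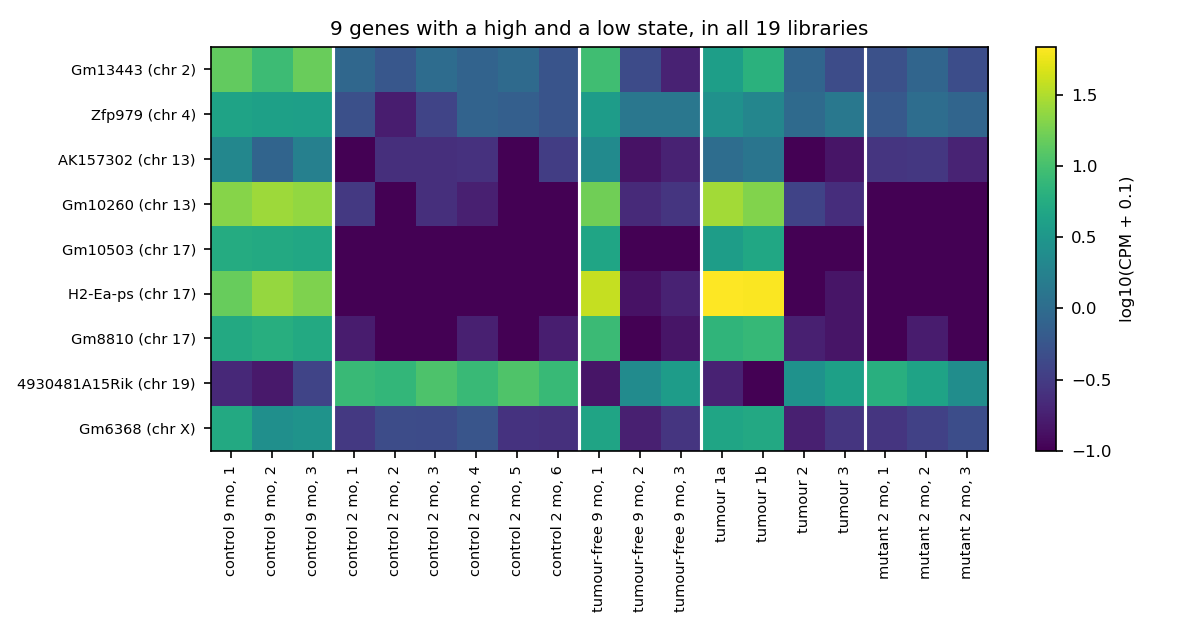
Level of the 9 genes in all 19 libraries as log10(CPM + 0.1), with control livers at 9 and 2 months on the left, then tumour-free mutant livers, tumours and 2-month mutant livers. The 3 controls at 9 months share their state with the 3 libraries of mutant 1, and all other libraries have the state of the 2-month controls.

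Counts of calls in the MHC region were as follows. From H2-K2 to H2-M2, at chr17:33974659-37483552, 25 of 119 tested genes passed (21.0%, against 11.9% of all genes), 20 higher and 5 lower. Among 27 tested genes named H2, 11 passed. H2-Q2, a class I gene, stood at 17.5, 14.7 and 20.7 CPM at 9 months, against a median of 0.676 CPM (0.369 to 0.758) at 2 months. Gm8909, a predicted class I gene next to it in kind, stood at 9.11, 10.6 and 12.6 CPM at 9 months and 0.303 CPM (0.0689 to 0.739) at 2 months. H2-D1, an abundant class I heavy chain, was 1.47-fold higher (617, 686 and 634 CPM at 9 months, against 375 to 517 CPM at 2 months, adjusted p = 0.0107). H2-K1 and H2-Q10 were more abundant, with means of 1104 and 2556 CPM at 9 months. Neither passed (log2 changes -0.0096 and 0.19, adjusted p = 0.966 and 0.484). Among class I genes as a list 3 of 23 rose and 2 fell (21.7%, against 11.9% of all genes). The list does not hold H2-K2, H2-Q5 and H2-M2, which passed as higher (log2 changes 1.57, 1.10 and 2.71). The falls were H2-Q7 (log2 change -0.63) and H2-T23 (-0.43). H2-Q7 lost its call without 9-month control 2 or 3, and H2-T23 in 8 of 9 fits that left out a library (adjusted p at most 0.138). Near-identical class I genes can share reads, so values of single H2 genes are uncertain. Changes of genes in this region were not separated from the animals' state at H2-Ea-ps, which differed in the same way between the groups.

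Genes that differ between male and female liver were examined as a male-biased and a female-biased list. Of 25 tested male-biased genes 11 fell and 1 rose, with a median log2 change of -1.48, and of 21 tested female-biased genes 11 rose and none fell, with a median of 0.96. The other 13 male-biased and 10 female-biased genes did not pass. Without any 1 library, 7 to 15 male-biased genes fell, 7 of them without 9-month control 3, and 10 to 12 female-biased genes rose. Only male mice were studied, by the labels, so these are changes of sex-biased genes within males. Of 4 tested genes of the Y chromosome 1 fell and none rose. Their mean levels summed to 124 CPM at 9 months and 149 CPM at 2 months.

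Cyp2b9, a cytochrome P450 that is high in female mouse liver, stood at 97.3, 195 and 61.7 CPM in the 9-month livers, against a median of 0.167 CPM (0 to 0.82) in the 2-month livers, a log2 change of 8.46 ± 0.60 (adjusted p = 7.58e-05). Its neighbour Cyp2b13 stood at 6.40, 8.58 and 2.19 CPM at 9 months and had 1 count in the 6 libraries at 2 months, a ratio of 539 with a 95% counting interval of 96.1 to 21338. All 3 livers at 9 months were above all 6 at 2 months for both. The promoters of the pair are shown because they are near copies, 298 of 300 bases being the same (99.3%), and so the genes may share reads as well. The windows run from 250 bases before to 50 after the start site, on the plus strand of GRCm38.p6, from RefSeq, at chr7:26173159-26173458 for Cyp2b9 and chr7:26061245-26061544 for Cyp2b13. Capitals mark the bases that differ, T48C and C104T from Cyp2b9 to Cyp2b13, counted from the first base of the window.
Cyp2b9: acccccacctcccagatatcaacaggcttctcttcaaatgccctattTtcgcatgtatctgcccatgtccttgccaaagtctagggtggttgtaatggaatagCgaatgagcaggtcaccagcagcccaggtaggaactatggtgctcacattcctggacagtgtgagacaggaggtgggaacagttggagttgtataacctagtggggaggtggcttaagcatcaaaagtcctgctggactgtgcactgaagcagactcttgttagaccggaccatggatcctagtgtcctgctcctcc
Cyp2b13: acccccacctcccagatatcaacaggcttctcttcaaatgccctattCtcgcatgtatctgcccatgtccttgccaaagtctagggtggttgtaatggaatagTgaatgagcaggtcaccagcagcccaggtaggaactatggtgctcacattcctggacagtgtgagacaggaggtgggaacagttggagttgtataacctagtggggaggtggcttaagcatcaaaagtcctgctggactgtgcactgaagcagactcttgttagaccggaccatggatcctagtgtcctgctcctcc

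Hao2, a hydroxyacid oxidase of peroxisomes, stood at 8.16, 10.6 and 3.55 CPM at 9 months, against a median of 0.0675 CPM (0 to 0.229) at 2 months (log2 change 6.04 ± 0.48, adjusted p = 2.47e-05). Slc22a27, an organic anion transporter, reached 6.66, 14.5 and 12.2 CPM at 9 months, against 0.789 CPM (0.308 to 0.859) at 2 months. Cyp2a4, a steroid hydroxylase of female liver, had 13.1, 82.9 and 32.6 CPM at 9 months, against 0.744 CPM (0.207 to 4.17) at 2 months. In each of these the 9-month livers lay above all 2-month livers.

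Among male-biased genes, Hsd3b5, a steroid dehydrogenase dependent on growth hormone pulses, had 17.7, 0.937 and 12.3 CPM at 9 months, against a median of 235 CPM (111 to 362) at 2 months (log2 change -4.45 ± 0.90, adjusted p = 0.0187). Its call was lost without 9-month control 3 (adjusted p = 0.0575). Selenbp2, a selenium-binding protein, had 15.6, 7.79 and 11.8 CPM at 9 months, against 300 CPM (46.2 to 626) at 2 months, and lost its call without 9-month control 2 (adjusted p = 0.0565). Serpina1e, an alpha-1 antitrypsin of mice, had 1003, 204 and 503 CPM at 9 months and 7433 CPM (3738 to 8748) at 2 months. Cyp4a12b, a fatty acid hydroxylase of male liver, had 10.1, 4.19 and 7.29 CPM at 9 months and 58.6 CPM (36.8 to 120) at 2 months. The 9-month livers lay below every 2-month liver for all 4. C6, a terminal complement component, fell 3.39-fold and Gstp1, a glutathione S-transferase, fell 2.79-fold. The one male-biased gene that rose was Cyp4a12a, near kin of Cyp4a12b, with 785, 876 and 703 CPM at 9 months and 275 CPM (159 to 336) at 2 months (log2 change 1.62 ± 0.18). These 2 genes are close in sequence and may share reads, and the part of this in their opposite changes was not tested. Ugt2b38, a glucuronosyltransferase, fell by 3.19 on the log2 scale, and its call was lost in 6 of 9 fits that left out a library (adjusted p at most 0.147).

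**Figure D3:**
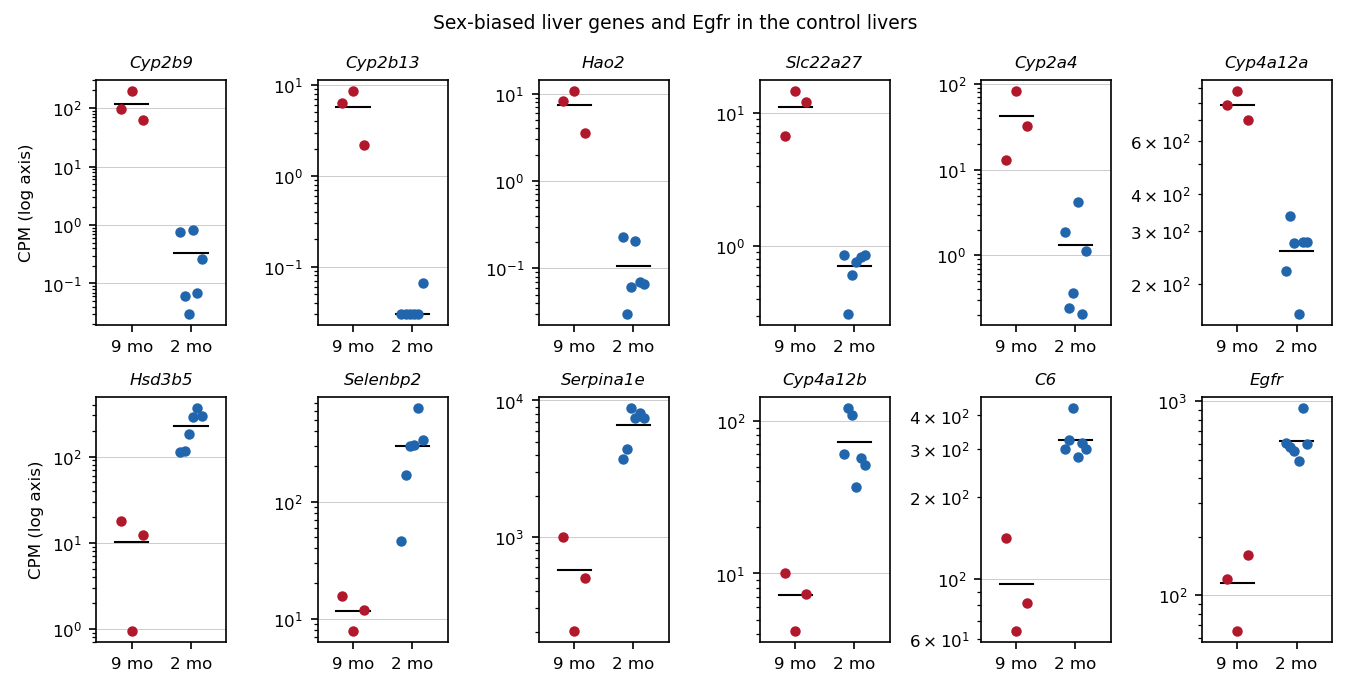
Level (CPM, log axis) of sex-biased liver genes and Egfr in each control liver, 9 months in red and 2 months in blue, with the group mean as a line and values under 0.03 CPM drawn at 0.03. Female-biased genes and Cyp4a12a are in the upper row, where all 9-month livers lie above the 2-month livers, and male-biased genes and Egfr in the lower row, where all lie below.

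The axis of growth hormone and insulin-like growth factor held 3 falls and no rise among 24 tested genes. The share of this list that passed in either direction was near the 11.9% of all genes. Egfr, the receptor of epidermal growth factor, which growth hormone maintains in mouse liver, had 121, 65.1 and 161 CPM at 9 months, against a median of 591 CPM (492 to 919) at 2 months, a 5.41-fold fall (adjusted p = 0.000578). Socs2, a STAT5 target that restrains the growth hormone receptor, had 4.15, 6.85 and 4.37 CPM at 9 months and 20 CPM (8.81 to 49.0) at 2 months. The fall of Socs2 (adjusted p = 0.0386) was lost in 5 of 9 fits that left out a library, with an adjusted p of at most 0.125. Irs2, an adaptor of the insulin receptor, fell 2.05-fold, and Igfbp1, a binding protein of insulin-like growth factors, did not pass (log2 change -1.56 ± 0.45, adjusted p = 0.0535). The list held 1 fall without 9-month control 2 and 5 without 2-month control 1. Without 9-month control 2, Irs2 was lost (adjusted p = 0.0828).

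The major urinary proteins are pheromone carriers that male liver makes under growth hormone. None of the 20 tested passed, with a median log2 change of -0.57. Those with the smallest adjusted p were Mup10 (log2 change -2.33, adjusted p = 0.146) and Mup8 (-3.27, adjusted p = 0.163). Their summed share was 0.512% to 0.575% of counts at 9 months, inside the range of 0.341% to 1.44% at 2 months. The 2-month livers fell apart here, controls 1 to 3 at 0.341% to 0.522% and controls 4 to 6 at 1.27% to 1.44%. Other genes, picked after their values were seen, split the same 2-month livers without overlap. Hsd3b5 had 111 to 181 CPM in controls 1 to 3 and 288 to 362 CPM in controls 4 to 6, Apoa4 had 373 to 622 and 123 to 130 CPM, and Fgg had 6057 to 6867 and 3750 to 4304 CPM in the same order. The genes of major urinary proteins are near-identical copies, and reads may be shared among them.

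The recognition core of STAT5, TTCNNNGAA on either strand, which reads the same on both, was looked for in the RefSeq promoter windows. It was found in 3 of 17 male-biased and 2 of 17 female-biased tested genes that have a window, in 6.46% of the genes that rose, in 8.96% of those that fell, in 7.05% of the 10321 tested genes with a window and in 8.47% of all 27025 windows.

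Many genes that make and store fat were higher. Of 30 tested genes of fatty acid and triglyceride synthesis 16 rose and none fell (median log2 change 0.76). Of 30 genes for lipid droplets and fatty acid uptake 14 rose and 1 fell (median 0.50). Without 9-month control 2 the first count was 8, and over the libraries left out the second was 11 to 15. Some genes stand in more than 1 list, so the counts of lists are not independent.

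Cidec, which fuses lipid droplets into larger ones, stood at 35.1, 125 and 81.0 CPM at 9 months, against a median of 1.31 CPM (0.911 to 2.17) at 2 months, a 57.4-fold rise (log2 change 5.84 ± 0.37, adjusted p = 1.85e-05). Cidea, a related droplet protein typical of brown fat and of fatty liver, had 10.8, 97.0 and 57.6 CPM at 9 months and only 3 counts in all 6 livers at 2 months, a ratio of 1743 with a counting interval of 596 to 8458. The antisense lncRNA B430212C06Rik overlaps the start of Cidea and was also at 0 in all 2-month livers, and at 1.70, 8.87 and 5.01 CPM at 9 months. In all 3 the 9-month control 1 was the lowest of its group and still above every 2-month liver. Fitm1, an endoplasmic reticulum protein that parts fat into droplets, rose 6.64-fold, with 104, 205 and 135 CPM at 9 months and 20.1 CPM (17 to 29.4) at 2 months. G0s2, an inhibitor of the triglyceride lipase ATGL, rose 4.15-fold. Lpl, lipoprotein lipase, was the only gene of the list that fell, with 13.8, 17.1 and 11.2 CPM at 9 months and 45.9 CPM (28 to 61.8) at 2 months.

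Mogat1, an acyltransferase that makes diacylglycerol and is low in lean mouse liver, had 8.41, 28.5 and 14.1 CPM at 9 months and 0.459 CPM (0.276 to 0.801) at 2 months (log2 change 5.08 ± 0.38, adjusted p = 1.84e-05). Me1, the malic enzyme that supplies NADPH, rose 2.44-fold, with 276, 356 and 339 CPM at 9 months and 103 to 161 CPM at 2 months. Gpam, the first acyltransferase of triglyceride synthesis, rose 2.13-fold. Fads2, the delta-6 desaturase, rose 1.95-fold to 1355, 1102 and 1238 CPM at 9 months, against 516 to 703 CPM at 2 months. These changes were seen in 3 of 3 livers at 9 months. Apoa4, an apolipoprotein that follows hepatic fat, had 2267, 6351 and 2952 CPM at 9 months, against 252 CPM (123 to 622) at 2 months. Mfsd2a, a carrier of lysophospholipids from the periportal list, had 292, 239 and 210 CPM at 9 months and 8.54 CPM (3.46 to 36.9) at 2 months.

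Markers of adipose tissue itself were examined because Cidea and Cfd, the serine protease adipsin, are also fat cell genes. Of 12 adipocyte genes 6 were tested and 2 passed, Cidea and Cfd (4.2, 6.26 and 2.04 CPM at 9 months, against 0 to 1.24 CPM at 2 months). The share of the 4 defining adipocyte markers stayed under 0.0001% in every liver, as given above. Cfd lost its call without 9-month control 2 (adjusted p = 0.0603).

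Of 42 tested genes of fatty acid oxidation 19 rose and 1 fell, with a median log2 change of 0.36. Without 9-month control 3 there were 11 rises. Acot3, a peroxisomal acyl-CoA thioesterase that is also female-biased, had 122, 78.1 and 41.0 CPM at 9 months, against a median of 4.76 CPM (2.00 to 7.78) at 2 months, a 16.6-fold rise (log2 change 4.06 ± 0.45, adjusted p = 0.000853). Acot4, its neighbour, rose 3.20-fold. Acaa1b, a peroxisomal thiolase, had 1719, 2649 and 1544 CPM at 9 months and 709 CPM (558 to 856) at 2 months. Pex11a, which divides peroxisomes, rose 2.52-fold. The 4 are known targets of PPARα in mouse liver. Fgf21, the fasting hormone of hepatocytes, had 3.75, 8.48 and 4.08 CPM at 9 months and 2.04 CPM (0.911 to 2.98) at 2 months, and lost its call without 9-month control 2 (adjusted p = 0.0971).

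Cholesterol synthesis and uptake held 5 rises and no fall among 26 tested genes, with a median log2 change of 0.068. Insig1, which holds SREBP in the endoplasmic reticulum, had 601, 424 and 399 CPM at 9 months, against 191 CPM (141 to 316) at 2 months, a 2.21-fold rise. Acat2, an acetyl-CoA acetyltransferase, rose by 0.69 on the log2 scale with overlapping groups, and lost its call in 7 of 9 fits that left out a library. Leaving out any 1 of 8 libraries brought the count of rises to 2 or 3, and leaving out 2-month control 3 was the exception.

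**Figure D4:**
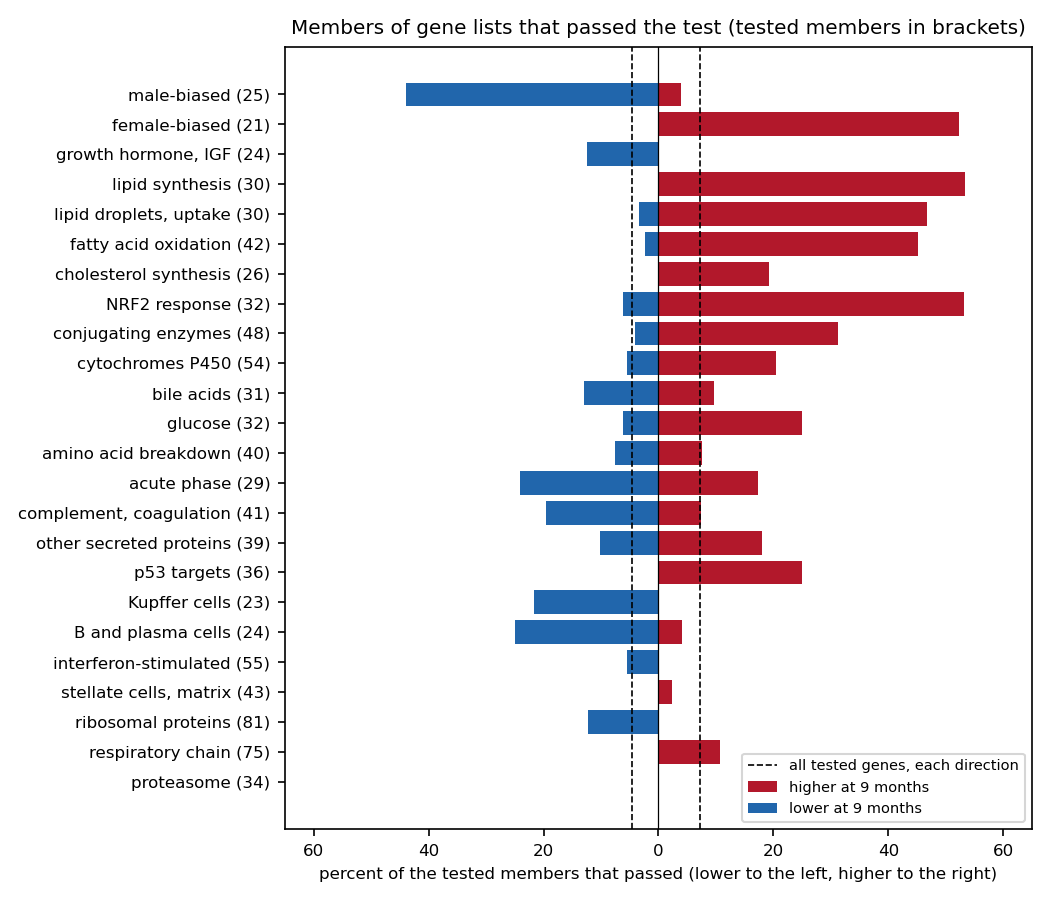
Percent of the tested members of 24 gene lists that passed, higher at 9 months to the right in red and lower to the left in blue, with the number of tested members in brackets. Dashed lines mark the 7.29% and 4.64% of all genes that passed in each direction; lipid synthesis, female-biased and NRF2 genes reach farthest right and male-biased genes farthest left.

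Enzymes that clear foreign compounds follow. Among cytochrome P450 enzymes 11 of 54 rose and 3 fell, and the median log2 change was 0.0037, with 7 falls without 9-month control 1. Several of these are the sex-biased enzymes above. Cyp2c39, a retinoic acid hydroxylase, had 5.30, 182 and 276 CPM at 9 months, against 1.27 CPM (0.957 to 2.00) at 2 months, with 9-month control 1 far below the other two. Cyp2d40 rose 2.40-fold, with 69.4, 91.9 and 76.7 CPM at 9 months and 26.4 to 36.3 CPM at 2 months. Among conjugating enzymes 15 of 48 rose and 2 fell (median 0.28). Tpmt, which methylates thiopurines, rose 2.91-fold, Gsta2, a glutathione S-transferase, 2.16-fold and Gstt3, of another class of the same enzymes, 1.91-fold. The 15 rises were 6 without 9-month control 2 and 9 without 2-month control 1, 4 or 6.

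Genes of the NRF2 response, which makes NADPH and glutathione against oxidants, held 17 rises and 2 falls among 32 tested (median log2 change 0.63). Tkt, transketolase of the pentose phosphate pathway, had 261, 317 and 273 CPM at 9 months and 154 CPM (139 to 170) at 2 months (log2 change 0.88 ± 0.10, adjusted p = 0.000252). Abcc4, an efflux pump of the sinusoidal membrane, had 7.81, 14.2 and 8.85 CPM at 9 months and 2.44 CPM (2.03 to 3.61) at 2 months. Me1 and Gsta2 also belong here, while Gstp1, another member, fell. There were 9 rises without 9-month control 2.

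Bile acid genes moved both ways, 3 up and 4 down of 31 (median 0.0013). Cyp46a1, a cholesterol 24-hydroxylase known mainly from brain, had 29.8, 32.5 and 22.6 CPM at 9 months, against 3.51 CPM (1.94 to 4.78) at 2 months, an 8.14-fold rise. Cyp2c70, which makes the muricholic acids of mice, fell 2.74-fold to 241, 110 and 166 CPM at 9 months, against 454 CPM (378 to 629) at 2 months. Slco1a1, a male-biased carrier of bile acids and other anions, had 190, 40.7 and 157 CPM at 9 months and 474 CPM (413 to 590) at 2 months. Without 9-month control 2 there were 2 falls in the list.

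In glucose handling 8 of 32 genes rose and 2 fell (median 0.36), with 5 rises without 9-month control 1 or 3. Ppp1r3g and Ppp1r3c, subunits that direct a phosphatase to glycogen, went opposite ways. Ppp1r3g had 7.31, 17.3 and 12.1 CPM at 9 months and 0.965 CPM (0.246 to 1.60) at 2 months, and Ppp1r3c had 34.3, 25.7 and 36.0 CPM at 9 months and 81.5 CPM (62.4 to 110) at 2 months. Pgk1, a glycolytic kinase, rose 1.76-fold, and Pgam1, a glycolytic mutase, fell 3.02-fold. Both have many processed copies in the genome that can share reads, so their values are uncertain.

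Amino acid breakdown (3 up, 3 down of 40, median 0.023) and the urea cycle with its carriers (1 up, 1 down of 15, median 0.14) had shares called near those of all genes. Gpt2, mitochondrial alanine aminotransferase, rose 1.69-fold to 807, 657 and 728 CPM at 9 months, against 398 to 478 CPM at 2 months. Prodh, proline dehydrogenase, rose 1.56-fold. Bckdhb, of the branched-chain keto acid dehydrogenase, rose 1.49-fold and Kynu, kynureninase, fell 1.30-fold. Slc38a3, a glutamine carrier, rose 1.41-fold and lost its call without 9-month control 1 or 3 (adjusted p at most 0.0723). Cps1, the entry enzyme of the urea cycle, had 2128, 1027 and 1888 CPM at 9 months, against 3406 CPM (3072 to 4377) at 2 months, a 2.09-fold fall (adjusted p = 0.00849). In retinoid metabolism 3 of 19 genes rose and 3 fell. Rdh16, a retinol dehydrogenase, rose 2.11-fold and Aldh1a1, which makes retinoic acid, rose 1.85-fold, while Stra6l, a retinol transporter of liver, fell 1.98-fold.

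Plasma proteins made by hepatocytes moved both ways. Of 29 tested acute phase genes 7 fell and 5 rose, with 3 rises without 9-month control 2. Fgg, the gamma chain of fibrinogen, had 2310, 1413 and 2146 CPM at 9 months, against 5181 CPM (3750 to 6867) at 2 months, a 2.66-fold fall. Il1r1, the receptor for interleukin-1, fell 3.11-fold. Orm2, an orosomucoid, rose 3.72-fold, and Lcn2, lipocalin-2, rose 3.69-fold to 9.96, 23.3 and 14.8 CPM at 9 months, against 4.01 CPM (1.98 to 6.96) at 2 months. Of 41 complement and coagulation genes 8 fell and 3 rose, with 5 falls without 9-month control 2 and 4 without 9-month control 3. F12, coagulation factor XII, fell 1.59-fold and C1ra, a protease of the first complement component, 1.58-fold. C4a, the sex-limited form of complement C4, lies in the MHC region and had 166, 156 and 187 CPM at 9 months, against 17.6 CPM (12 to 38.4) at 2 months. With all libraries scaled together C4a stood at 204 CPM in the tumour-free piece of mutant 1 and at 32.4 and 43.5 CPM in those of mutants 2 and 3.

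Of 39 other secreted proteins 7 rose and 4 fell, with 3 rises without 9-month control 2. Ahsg, fetuin A, fell 2.04-fold to 4959, 3908 and 5679 CPM at 9 months, against 9706 CPM (9073 to 11318) at 2 months. Apom, the lipoprotein carrier of sphingosine-1-phosphate, fell 3.16-fold. It lies at chr17:35128997-35132050, inside the MHC stretch counted above, where changes were not separated from the state at H2-Ea-ps. Serpina6, the corticosteroid-binding globulin, rose 2.00-fold. In iron handling 2 of 21 genes rose and 2 fell. Ftl1 and Fth1, the subunits of the iron store ferritin, rose 1.78-fold and 1.65-fold, while Cp, the ferroxidase ceruloplasmin, fell 1.5-fold. Slc11a2, an iron importer, fell 1.47-fold and lost its call without 9-month control 2 (adjusted p = 0.0613).

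Immune genes were examined as lists of pathways and of cell types. Of 55 tested interferon-stimulated genes 3 fell and none rose (5.45%, median log2 change -0.21). This was near the 4.64% of all genes that passed as lower. Ifi47, a guanosine triphosphatase induced by interferon gamma, had 17.2, 12 and 18.5 CPM at 9 months and 31.3 CPM (24.7 to 43.2) at 2 months. Iigp1, another guanosine triphosphatase of this kind, fell 1.65-fold, and Parp14, a mono-ADP-ribosyltransferase, fell 1.51-fold. Iigp1 lost its call without 9-month control 2 and Parp14 without 9-month control 2 or 3 (adjusted p at most 0.0589). Without 9-month control 2 there was 1 fall and without 9-month control 1 there were 5. Outside the H2 genes described, 1 of 10 class II genes passed, H2-DMb2, which aids peptide loading, and its call was lost without 9-month control 2 or 3 (highest adjusted p 0.0676).

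Kupffer cells are the resident macrophages of the liver. Of 23 tested markers 5 fell and none rose (21.7%, median -0.47), and the share of 5 defining markers was 0.0155% to 0.0201% of counts at 9 months and 0.0189% to 0.0407% at 2 months (exact permutation p = 0.0595, adjusted 0.190). Vsig4, a complement receptor of these cells, had 16.7, 14.3 and 12.3 CPM at 9 months, against 33.8 CPM (23.1 to 48.8) at 2 months (adjusted p = 0.00266). Adgre1, the F4/80 antigen, fell 2.14-fold and lost its call without 9-month control 2 or 3 (highest adjusted p 0.0658). Folr2, a folate receptor, fell by 0.88 and Clec4f, a lectin of Kupffer cells, by 0.66 on the log2 scale, and these calls were lost in 4 and 5 of 9 fits that left out a library. The count of falls was 1 without 9-month control 3, 2 without 9-month control 1 or 2 or 2-month control 4, 3 without 2-month control 6 and 9 without 2-month control 3. Among 23 tested genes of recruited macrophages, dendritic cells and neutrophils 3 rose and 2 fell. Mmp12, macrophage elastase, had 0.801, 2.81 and 1.70 CPM at 9 months and 0.261 CPM (0.132 to 0.364) at 2 months, and Gpnmb, a marker of lipid-laden macrophages, had 1.15, 6.51 and 1.65 CPM at 9 months and 0.354 CPM (0.185 to 0.515) at 2 months. Ctsd, a lysosomal protease, rose 1.51-fold. The 5 defining markers of recruited macrophages summed to 0.00042% to 0.0019% of counts at 9 months and 0.00042% to 0.00053% at 2 months, 9-month control 2 being the highest.

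Markers of lymphocytes were examined next. Of 24 tested markers of B and plasma cells 6 fell and 1 rose (median -0.39), with 3 falls without 9-month control 2 or 3. Ighg2b had 0.300, 0.493 and 0.097 CPM at 9 months, against 4.13 CPM (1.72 to 6.41) at 2 months (log2 change -3.78 ± 0.54, adjusted p = 0.00135). Igha, the chain of mucosal antibodies, had 4.75, 1.82 and 1.90 CPM at 9 months and 8.86 CPM (5.49 to 10.5) at 2 months, and lost its call without 9-month control 2 (adjusted p = 0.0519). Ighg2c and Ighg1, other IgG chains, fell by 4.08 and 2.85 on the log2 scale, and Ighg1 lost its call without 9-month control 2 or 3 (adjusted p at most 0.0616). The summed share of 6 defining markers overlapped, with 0.0033% to 0.0071% at 9 months and 0.0023% to 0.0061% at 2 months (exact permutation p = 0.321). The share of all 268 immunoglobulin genes also overlapped, with 0.00538% ± 0.0019 at 9 months (SD, n = 3) and 0.00593% ± 0.0015 at 2 months (SD, n = 6; exact permutation p = 0.643). Among 18 tested T and NK cell genes 1 rose and 1 fell (11.1%, against 11.9% of all genes). Themis, a signalling protein of developing T cells, had 9.91, 17.4 and 8.36 CPM at 9 months, against 0.297 CPM (0.132 to 0.41) at 2 months, a 40.5-fold rise. Cd4, the co-receptor of helper T cells, fell by 1.58 on the log2 scale and lost its call without 9-month control 2 or 3 (adjusted p at most 0.0669). The summed share of 5 defining T and NK markers was 0.00025% to 0.00035% at 9 months and 0.00025% to 0.00037% at 2 months.

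The supporting cells of the liver gave few calls. Of 43 genes of stellate cells and matrix 1 passed, Ccn2, a growth factor of the matrix, with 29.2, 11 and 13.2 CPM at 9 months and 3.95 CPM (3.55 to 11.1) at 2 months, lost without 9-month control 1 (adjusted p = 0.0651). Of 33 endothelial genes 2 rose, Plvap, a protein of vessel fenestrae, by 0.50 and Egfl7, a matrix protein of vessels, by 0.66 on the log2 scale, and the count was 0 without 9-month control 2 or 3 and 9 without 2-month control 1. Of 22 bile duct genes 1 rose and 3 fell. Krt8, a keratin that hepatocytes share, rose by 0.58, and Sox9, a transcription factor of the ducts, fell by 1.02 on the log2 scale. Krt8 lost its call without 9-month control 2, and Sox9 in 6 of 9 fits that left out a library. Cdh1, E-cadherin, which in mouse liver is kept by bile ducts and periportal hepatocytes, had 5.05, 4.04 and 4.96 CPM at 9 months, against 53.6 CPM (28.4 to 67.9) at 2 months, an 11.2-fold fall (log2 change -3.48 ± 0.28, adjusted p = 3.16e-05). In the periportal list 2 of 24 genes rose and 4 fell, and in the pericentral list 3 of 26 rose and none fell. Of 26 hepatocyte identity genes 1 rose and 1 fell.

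Red blood cell markers moved with the groups. Of 9 tested genes 3 rose, among them Hba-a1, a globin chain, with 23.2, 36.8 and 27.2 CPM at 9 months and 14.5 CPM (10.8 to 19.9) at 2 months. The other two were Hba-a2 and Hbb-bs, with log2 changes of 0.92 and 0.65. No gene of the list passed without 9-month control 2 and 1 did without 9-month control 3. Hba-a1 had an adjusted p of 0.0503 without 9-month control 2. The summed share of 3 defining markers was 0.0326% to 0.0356% at 9 months and 0.0207% to 0.0256% at 2 months (exact permutation p = 0.0119, adjusted 0.143). The part of residual blood in other results was not tested.

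Genes of cell division gave few calls. Of 29 mitosis genes 1 rose and none fell (median log2 change 0.50), the riser being Spc24, a kinetochore subunit, with 24.8, 36.2 and 24 CPM at 9 months and 11.3 CPM (9.98 to 15.4) at 2 months. Of 45 DNA replication genes 4 rose and none fell (8.89%, against 7.29% of all genes higher, median 0.17). There was 1 rise without 9-month control 2 or 3 or 2-month control 1. The rises were led by E2f1, a driver of entry into S phase, with 6.10, 8.77 and 6.85 CPM at 9 months and 3.03 CPM (2.63 to 3.76) at 2 months. The other 3 were Mcm2, of the replicative helicase, Gins2, of the same complex, and Lig1, DNA ligase I, with log2 changes of 1.02, 1.06 and 0.58, and they lost their calls in 3, 8 and 7 of 9 such fits. Hist1h4i was the 1 histone gene of 4 tested that rose. Among p53 targets and senescence genes 9 of 36 rose and none fell (25.0%, median 0.30), and 5 rose without 2-month control 4. Perp, a membrane protein induced by p53, had 138, 137 and 143 CPM at 9 months and 88.3 CPM (84.7 to 90.8) at 2 months. Phlda3, a p53-induced brake on the kinase AKT, had 2.40, 3.50 and 2.43 CPM at 9 months and 0.581 CPM (0.264 to 0.827) at 2 months. Ccng1, cyclin G1, rose 1.55-fold. Gdf15, a stress hormone, rose by 1.61 on the log2 scale and lost its call in 6 of 9 fits that left out a library. Among 19 oncofetal and tumour marker genes 3 rose and 1 fell, and Hk2, the hexokinase of tumours and muscle, had 3.05, 12.6 and 7.10 CPM at 9 months and 1.59 CPM (1.03 to 2.6) at 2 months. Tff3, a trefoil peptide, fell by 3.57 on the log2 scale and lost its call in 4 of 9 fits. In the network of growth genes that declines after birth 1 of 21 rose and 2 fell, Smo, the transducer of hedgehog signals, falling 2.73-fold. Hmga1, a chromatin protein, fell by 1.06 and Mest, an imprinted gene, rose by 0.87 on the log2 scale, and both lost their calls without 9-month control 2 or 3.

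The circadian clock has to be read with the hour of sacrifice, which is not given. Of 20 clock genes 1 rose and 2 fell. Arntl (BMAL1), the partner of CLOCK, had 0.801, 1.13 and 1.60 CPM at 9 months, against a median of 7.73 CPM at 2 months (3.90 to 39.0), and its call (adjusted p = 0.0461) was lost in 6 of 9 fits without a library. Clock itself fell 2.31-fold, with 18.8, 15.7 and 17.6 CPM at 9 months and 39.7 CPM (33.8 to 48.4) at 2 months (adjusted p = 0.000153). Per2, a repressor that peaks in antiphase to Arntl, stood at 98.9, 73.7 and 35.8 CPM at 9 months and 22.3 CPM (6.07 to 35.3) at 2 months without passing (adjusted p = 0.0744). Age, run and hour cannot be told apart for these genes. The E-box CACGTG, the site of the CLOCK complex, was found in the promoter windows of 5 of 17 tested clock genes, in 10.2% of tested genes and in 7.24% of all windows.

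Genes that respond to handling within minutes moved with 1 animal. Of 25 immediate early genes 3 rose and none fell (median 0.88). Fos had 577 CPM in 9-month control 1 and 3.25 and 1.07 CPM in the other two, against 1.17 CPM (0.801 to 3.24) at 2 months. Without 9-month control 1 none rose, without 9-month control 3 there were 12 rises, and without any 1 of 2-month controls 2 to 6 there was 1. The adjusted p of Fos was 0.0444, and 0.738 at most where a library was left out. The summed share of immediate early genes was 0.413% in 9-month control 1, 0.0339% and 0.0539% in the other 9-month livers, and 0.0294% to 0.0475% at 2 months. In the AP-1 family 3 of 16 rose, Jun, Fos and Jund, the last by 0.75 on the log2 scale with its call lost in 3 of 9 fits. Among 17 heat shock genes only Hspb1 passed, with 15.7 CPM in 9-month control 1, and its call was lost without that animal or any 1 liver at 2 months (adjusted p at most 0.142). Of 20 glucocorticoid and fasting genes 2 rose, Lcn2 and Fgf21, and 1 fell, Irs2. Cebpb, a transcription factor of stress and differentiation, is not in that list. It had 184, 148 and 102 CPM at 9 months and 57.9 CPM (25.5 to 74.2) at 2 months, and lost its call without 9-month control 2 (adjusted p = 0.0669). Of 40 genes of amino acid and endoplasmic reticulum stress 3 rose (7.5%, against 7.29% of all genes higher). Cebpb and Fgf21 were among them, and none rose without 9-month control 2.

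Of the housekeeping machines, 34 proteasome genes gave no call and 7 mitochondrially encoded genes none. At an unadjusted p the same test of edgeR gave 6 proteasome and 0 mitochondrial genes under 0.05, against 3906 of all 13545 genes tested. DESeq2 called 2 and 0, and limma voom 0 and 0. Of 81 ribosomal protein genes 10 fell and none rose (12.3%, median -0.044), with 5 falls without 9-month control 3 and 6 without 2-month control 1, 5 or 6. Rps18, which lies on chromosome 17 just outside the MHC stretch counted here (chr17:33951999-33956001), fell the most among the 4 with the smallest adjusted p, with 10.8, 13.7 and 8.80 CPM at 9 months and 28.6 CPM (27.0 to 33.8) at 2 months. Rps25 and Rpl34 each fell by 0.77 on the log2 scale. Rpl7 fell by 0.40. All have many processed copies that can share reads. Of 75 nuclear respiratory chain genes 8 rose (10.7%, against 7.29% of all genes higher, median 0.19). There were 22 rises without 9-month control 1 and 0 to 4 without any 1 of the other 8 libraries. Cox8a and Cox5b, subunits of cytochrome c oxidase, rose by 0.54 and 0.57 on the log2 scale, and lost their calls in 3 and 5 of 9 fits that left out a library.

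Other genes named for the size of their change belong to no list. A4gnt, a glycosyltransferase of gastric mucus, had 6.15, 11.2 and 6.95 CPM at 9 months and 0 to 0.308 CPM at 2 months. Serpina3c, a serine protease inhibitor, had 1.05, 39.2 and 82.4 CPM at 9 months and 0.419 CPM (0.0683 to 0.677) at 2 months, so that 9-month control 1 stood near the 2-month livers. Ctse, a protease of gastric and immune cells, was high in 1 liver alone, with 0.751, 90.8 and 1.41 CPM at 9 months and 0.411 CPM (0.0616 to 0.595) at 2 months, and lost its call without that animal or any 1 liver at 2 months (adjusted p at most 0.113). Gm11942 had 6.86, 17.4 and 6.95 CPM at 9 months and 0 to 0.207 CPM at 2 months. Among falls, Adgrf1, an adhesion receptor, had 1.70, 0.148 and 0.535 CPM at 9 months and 13.2 CPM (9.27 to 17.2) at 2 months. Avpr1a, the hepatic receptor of vasopressin, fell 6.37-fold, with 4.35, 4.73 and 6.17 CPM at 9 months and 34.2 CPM (15.4 to 42.4) at 2 months. Cd276, an immune checkpoint protein, fell 7.17-fold and Scara5, a receptor for ferritin, 10.7-fold. Slc13a2, a citrate carrier, fell 6.68-fold and lost its call without 9-month control 2 (adjusted p = 0.0679). The protein-coding gene Gm3839 fell by 2.25 on the log2 scale. Of genes of other biotypes, Gm38416 and Gm50136 fell by 2.94 and 2.48, besides 4930481A15Rik, and Gm50136 lost its call without any 1 of the 9-month controls (adjusted p at most 0.114).

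Mutant livers crossed the same interval and the same change of run, in separate animals. The 3 tumour-free pieces at 9 months against the 3 mutant livers at 2 months gave 332 calls of 14155 genes tested (2.35%), 230 higher (1.62%) and 102 lower (0.721%), and 327 higher and 83 lower when libraries were scaled by their totals alone. Leaving out 1 library gave 90 to 557 calls, the lowest without tumour-free piece 3 and the highest without tumour-free piece 1. No library is shared with the control comparison. Of the 988 genes that rose in controls 928 were tested in mutants, where 56 passed as higher and 5 as lower, with a median log2 change of 0.26 in mutants and 0.76 in controls. Of the 628 that fell 608 were tested, where 32 passed as lower and 3 as higher, with a median of -0.30 in mutants and -0.70 in controls. The sign was the same for 75.5% of the tested genes that rose and 81.4% of those that fell in controls, and for 64.9% of genes that did not pass.

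The difference between the mutant and the control change was tested in 1 fit. It passed for 223 of 14707 genes (1.52%), 68 with a higher change in mutants (0.462%, 41 without 9-month control 3) and 155 with a lower one (1.05%). Scaling by library totals alone gave 92 and 87. Among the 988 genes that rose in controls it passed for 117, with the sign opposite to the control change in 116. Among the 628 that fell it passed for 27, with the opposite sign in 26. The control libraries that gave these calls also enter the difference, so these counts are not independent of the calls. The difference passed for 9 of 42 fatty acid oxidation genes tested in controls and 6 of 30 of lipid synthesis. It passed for 6 of 30 lipid droplet genes and 6 of 54 cytochromes P450.

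In the libraries scaled together, Cidec stood at 136, 157 and 175 CPM in mutant livers at 9 months and 76.3, 354 and 200 CPM in mutant livers at 2 months, so that the mutants at 2 months already stood above the 2-month controls. The mutant change less the control change was -6.29 on the log2 scale (adjusted p = 0.000802). Acot3 stood at 103, 70.8 and 70.6 CPM in mutants at 9 months and 136, 83.1 and 87.1 CPM in mutants at 2 months, near the 9-month controls (difference -4.40, adjusted p = 0.00298). Cidea, high in 9-month controls, was at 0.0881 CPM or less in every mutant liver, but its difference did not pass (adjusted p = 0.62). Fads2 had 348, 330 and 300 CPM in mutants at 9 months and 490, 961 and 386 CPM in mutants at 2 months (difference -1.89, adjusted p = 0.00709). Themis, with 31.5, 18.3 and 18.3 CPM in mutants at 9 months and 10.0, 14.7 and 14.8 CPM in mutants at 2 months, had the smallest adjusted p of the difference (-4.58, adjusted p = 0.000185). Osbpl3, a lipid transfer protein, rose 15.8-fold in controls, and had 75.3, 81.3 and 62.3 CPM in mutants at 9 months and 111, 72.7 and 108 CPM in mutants at 2 months. Nebl, a cytoskeletal protein, and Sult2a7, a sulfotransferase, rose by 3.45 and 2.53 in controls and differed by -5.63 and -5.67 on the log2 scale. Wfdc21 did not pass in controls (log2 change 0.05), and its change in mutants differed by -3.97 (adjusted p = 0.000256). Cdh1 went against this order: it had 185, 282 and 182 CPM in mutants at 9 months and 258, 192 and 295 CPM in mutants at 2 months, and a difference of 3.26 (adjusted p = 0.000685).

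**Figure D5:**
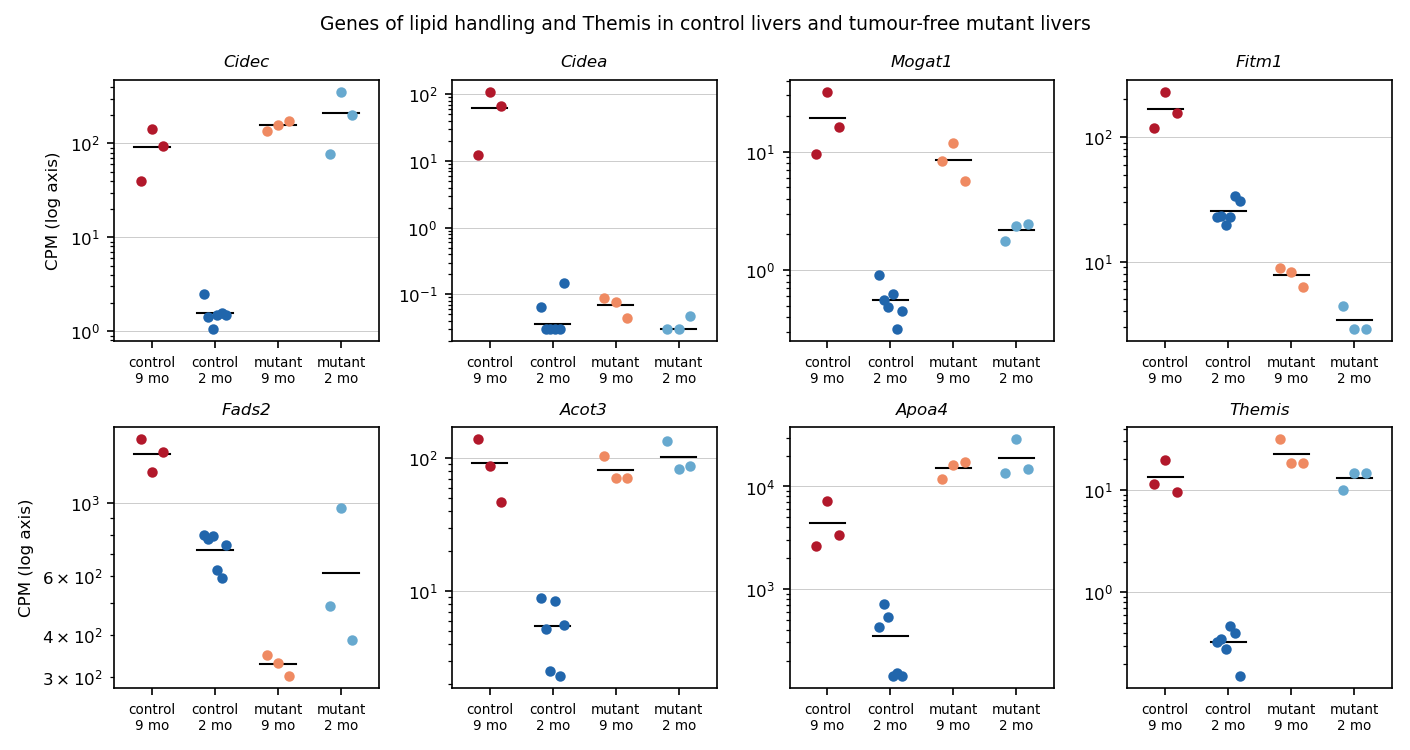
Level (CPM after scaling all 19 libraries together, log axis) of 7 genes of lipid handling and Themis in controls at 9 and 2 months and in mutants at 9 months (tumour-free) and 2 months, with the group mean as a line and values under 0.03 CPM drawn at 0.03. In Cidec, Acot3, Apoa4 and Themis all mutants lie above the 2-month controls, and Cidea is high in the 9-month controls alone.

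The change with time of the sex-biased genes did not pass as different between genotypes in every case. Cyp2b9 had 13.8, 4.66 and 8.50 CPM in mutants at 9 months and 4.15, 0.814 and 1.64 CPM in mutants at 2 months, and its rise was larger in controls (difference -6.46, adjusted p = 0.0069). Cyp2a4 rose in both, by 5.01 in controls and 9.53 in mutants on the log2 scale (difference adjusted p = 0.276). C6 fell by 1.76 in controls and 1.47 in mutants (0.825), Slco1a1 fell by 1.93 and 2.18 (0.937), and Egfr fell by 2.44 and 1.79 (0.577), the last value of each being the adjusted p of the difference. Their levels differed between genotypes from the start. Slco1a1 had 0.876, 0.814 and 1.03 CPM in mutants at 2 months, near the floor, against 478 to 671 CPM in controls at 2 months. Egfr had 156, 111 and 180 CPM in mutants at 2 months, against 73.2 to 185 CPM in controls at 9 months. C6 had 640, 590 and 469 CPM in mutants at 2 months and 319 to 491 CPM in controls at 2 months. Serpina1e was already at 25.4, 14.1 and 19.2 CPM in mutants at 2 months, with 38.1, 29.8 and 21.9 CPM at 9 months, and its change differed from that of controls by 4.13 (adjusted p = 0.00576). Serpina3c and Cyp2c39 rose in both genotypes, with log2 changes of 7.60 and 5.79 in mutants and 6.58 and 6.81 in controls. A p for a difference that does not pass does not show that the changes were equal.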

How the data were processed

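The counts per gene were deposited by the authors as 1 table of whole numbers for 19 libraries of poly(A)+ RNA from a stranded kit, per the labels' protocols. The submitters' processing notes name RSEM, the aligner STAR (2.6.1a), DESeq2 (1.22.2) and bedtools (2.27.1), with the builds mm10 and GRCm38, and how each was applied is not given in the sources used here. Of 55421 gene identifiers 54673 matched GENCODE M21 with the same version.

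Columns were assigned to samples and groups by their labels. Genes were kept by filterByExpr, scaled by TMM and tested with edgeR 4.0.16 (quasi-likelihood, robust, Benjamini-Hochberg adjusted p under 0.05) in R 4.3.3, on the 9 control libraries alone. The same fit was run on the mutants, and a fit with an interaction term over 15 libraries tested the difference between genotypes. Shares of counts over 24 gene sets were compared by two-sided exact permutation over 84 splits, of which 0.0119 is the smallest p. A floor of 3 counts over the group stands in for groups without a count. Alternatives were DESeq2 1.42.0, limma 3.58.1 (voom), other scalings, filters and sample sets, a replicate block and leaving out each library. The scripts were tested on simulated data.

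Genes named are the 15 protein-coding genes and the 3 of other biotypes with the largest rise and fall among those that passed, with no overlap and at least 5 CPM in the higher group, up to 4 members of each list by adjusted p, the 6 genes with the smallest adjusted p of the difference, and Jun, Fosl2 and Myc. Some genes that this rule names are not reported here. The members and the lists were chosen with earlier results of these data known. Intervals and floors cover counting error only.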

Additional observations from a re-analysis of the deposited data

Results flagged for a closer look

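For some values 1 of the 2-month livers stood far from the other 5 by Dixon's rule. The rule takes the ratio of its gap to the range of the 6, and chance passes it in about 1 of 20 groups. The liver that stood apart was not always the same, being control 1 for Cidec, control 2 for Mfsd2a and control 6 for Cps1. The highest values of Gm11942 and Cyp2b13 rest on 3 counts and 1 count. The highest liver stood apart for Cps1 (4377 CPM, next 3541), Rpl34 (57.2 CPM, next 49.5), Gm11942 (0.207 CPM, next 0.0616), Orm2 (11.6 CPM, next 6.68), Mfsd2a (36.9 CPM, next 12.6), Cidec (2.17 CPM, next 1.38), Cyp2b13 (0.0661 CPM, next 0) and A4gnt (0.308 CPM, next 0). The same was seen for Ccn2 (11.1 CPM, next 4.27), Gstt3 (66.2 CPM, next 50.5), Rdh16 (133 CPM, next 99.8), Egfr (919 CPM, next 611), Hist1h4i (1.10 CPM, next 0.752), C6 (425 CPM, next 325), Parp14 (43.2 CPM, next 36.7) and Gpam (301 CPM, next 230). The lowest liver stood apart for Kynu (212 CPM, next 220). The share of hepatocyte markers had a lowest value of 9.90% of counts, with 11.4% next. The share of adipocyte markers had a highest value of 5.73e-05% of counts, with 6.67e-06% next.

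The change with time differed between mutants and controls, by the test of the difference in edgeR, for some of the genes named. Many were named for their change in controls, and the control libraries enter both tests. Values are the mutant change less the control change on the log2 scale, with the adjusted p after each. The change was lower in mutants for Mogat1 (-3.14, 0.00831), Nebl (-5.63, 2.56e-04), Osbpl3 (-4.42, 3.42e-04), Cidec (-6.29, 8.02e-04), Sult2a7 (-5.67, 7.60e-04), Cyp2b9 (-6.46, 0.00690), Pex11a (-1.31, 0.0358) and Spc24 (-1.19, 0.0402). It was also lower for Apoa4 (-4.01, 0.0331), Me1 (-1.27, 0.0386), Themis (-4.58, 1.85e-04), Rdh16 (-1.38, 0.00457), Wfdc21 (-3.97, 2.56e-04), Acot4 (-1.97, 0.00583), Acot3 (-4.40, 0.00298), Cyp46a1 (-1.70, 0.0478), Fitm1 (-1.55, 0.0368) and Fads2 (-1.89, 0.00709). The change was higher in mutants for Cdh1 (3.26, 6.85e-04), Cd276 (2.61, 0.0199), Serpina1e (4.13, 0.00576), Gm3839 (2.88, 0.0415), Ahsg (0.97, 0.0249), Tff3 (6.79, 0.0305) and Cyp2c70 (1.52, 0.0200).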

How the results depend on the processing

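Among control livers 1616 genes passed (988 higher, 628 lower). DESeq2 called 975 lower, and asking for a 2-fold change left 581 (375 higher, 206 lower). Leaving out 1 library gave 797 to 1899 calls, 547 to 1127 higher and 250 to 772 lower. Scaling by library totals alone gave 900 higher and 736 lower. Among mutants, no filter on low counts gave 759 calls (506 higher, 253 lower), and leaving out 1 library gave 90 to 557, with 66 to 392 higher and 20 to 165 lower. For the difference, DESeq2 called 534 genes (217 higher, 317 lower), scaling by totals alone gave 87 lower, and leaving out 1 library gave 41 to 72 higher and 108 to 169 lower. The causes of these shifts were not tested.

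Deviations from the group means correlated at 0.050, -0.157 and 0.166 between same-numbered control libraries. Between different-numbered ones they correlated at -0.218 to 0.304. With so few animals this cannot decide whether the numbers pair them, by litter or cage for example. With the replicate number as a block 384 genes passed in controls (266 higher, 118 lower) and 443 in mutants (304 higher, 139 lower).

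Of 1287 values of the 163 named genes over 8 settings, 1158 kept their direction and side of the threshold, 120 lost the call (75 of them under the replicate block), 7 gained it and 2 reversed, Mup8 (0.55) and Wfdc21 (-0.14), both under the replicate block. Of 1458 values with 1 library left out, 165 lost the call and 3 reversed. Over the libraries left out Fosl2 ranged from -0.20 to 0.36, Myc from -0.56 to 0.72 and Wfdc21 from -0.0034 to 0.11 on the log2 scale. The difference in the share of B and plasma cell markers ranged from -9.69e-05 to 0.00183 percentage points. The comparison is limited by 3 animals at 9 months and by time being tied to sequencing run. The state of the 9 genes that followed the animal in the mutants is tied to the control groups as well. Counting error adds to the spread of genes at a few counts per library.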
